A study of Mus musculus with 4 samples.

Results

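Agrin and the dystrophin glycoprotein complex were followed as 9 genes, Agrn, Dag1, Dmd, Utrn, Sgca, Sgcb, Sgcd, Sspn and Lrp4, out of 32285 measured features, chosen by gene symbol. They were read in spatial transcriptomes of 4 mouse heart sections made with the 10x Genomics Visium assay, in which a section lies on barcoded spots and a spot can hold several cells of different types or parts of them. All hearts came from ICR mice whose left ventricular apex was cryoinjured at postnatal day 1, and they were taken 1, 4, 7 or 14 days later (d1, d4, d7 and d14; postnatal days 2, 5, 8 and 15). There was 1 section of 1 heart per day and no uninjured section, so injury, time and age cannot be told apart, and no difference between days has a replicate check. The labels name no genetic modification and no treatment beside the injury, and hearts were cut until the lesion was visible, which fixes the plane of each section by the injury.

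The dystrophin glycoprotein complex links the cytoskeleton of muscle cells to the basement membrane. Dystroglycan, made from Dag1, is its receptor at the cell surface. It binds laminins, perlecan and agrin outside the cell, and dystrophin or its relative utrophin inside, while sarcoglycans and sarcospan steady the assembly in the membrane. Agrin is a heparan sulfate proteoglycan best known at the neuromuscular junction, where it acts through Lrp4 and the kinase MuSK, and in the newborn heart it is known as a matrix signal to cardiomyocytes through dystroglycan and Yap.

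The 9 genes are protein coding and lie on 8 chromosomes, with Sgca and Sgcd both on chromosome 11 (GRCm38, GENCODE vM21). Agrn runs from 156165290 to 156197488 on chromosome 4, and Dag1 from 108204634 to 108263958 on chromosome 9. Dmd, from 82948870 to 85206141 on the X chromosome, spans 2257 kb and Sgca, from 94962791 to 94976327 on chromosome 11, spans 13.5 kb. The assay primes at poly(A) tails, so the counts of Dmd do not separate full-length dystrophin from shorter products that end at the same 3′ end. The RefSeq table used here lists 2 start sites for Dmd, the second near the 3′ end of the gene.

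Of the 9 members, 8 had an entry in the RefSeq promoter table (GRCm38.p6). The 250 bases before the 5′-most start are shown for the 4 members whose levels differed at least 1.5-fold from d1 on some day, to set their start regions side by side. Each reads 5′ to 3′ on the strand of its gene, and capitals mark the letters GGGCGG, the GC box, on either strand, with overlapping matches counted.
Agrn promoter (chr4:156197489-156197738, minus strand): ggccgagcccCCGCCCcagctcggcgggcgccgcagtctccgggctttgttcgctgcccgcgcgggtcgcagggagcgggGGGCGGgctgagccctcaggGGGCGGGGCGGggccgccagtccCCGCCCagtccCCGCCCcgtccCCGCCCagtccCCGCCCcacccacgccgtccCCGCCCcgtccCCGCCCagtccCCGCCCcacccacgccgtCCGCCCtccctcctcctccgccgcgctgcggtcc
Dag1 promoter (chr9:108263959-108264208, minus strand): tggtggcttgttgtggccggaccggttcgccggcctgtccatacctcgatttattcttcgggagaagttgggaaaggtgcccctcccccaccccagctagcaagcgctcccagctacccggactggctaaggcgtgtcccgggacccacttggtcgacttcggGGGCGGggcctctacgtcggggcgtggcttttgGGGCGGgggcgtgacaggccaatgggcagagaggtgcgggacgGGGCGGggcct
Dmd promoter (chrX:82948620-82948869, plus strand): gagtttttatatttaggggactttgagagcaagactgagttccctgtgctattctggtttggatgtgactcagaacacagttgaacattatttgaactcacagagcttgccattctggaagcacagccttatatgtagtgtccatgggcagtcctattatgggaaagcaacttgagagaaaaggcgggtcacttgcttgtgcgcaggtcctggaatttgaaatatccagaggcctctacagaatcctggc
Sgca promoter (chr11:94976328-94976577, minus strand): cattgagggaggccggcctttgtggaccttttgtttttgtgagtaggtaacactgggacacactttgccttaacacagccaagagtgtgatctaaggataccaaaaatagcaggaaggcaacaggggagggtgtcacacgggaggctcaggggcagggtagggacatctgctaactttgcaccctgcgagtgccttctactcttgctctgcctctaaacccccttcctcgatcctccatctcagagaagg

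The Agrn window held 12 GC boxes and was 83.6% G or C. The Dag1 window held 3, and those of Dmd and Sgca, at 45.2% and 52.8% G or C, held 0. Of all 32851 windows of 250 bases in the table, 32.7% held at least 1 GC box and 0.0304% held 10 or more. The letters CANNTG (an E-box, which reads the same on both strands) stood at 2 places in the Dmd window, 1 in that of Sgca, 1 in that of Dag1 and 0 in that of Agrn, against 66.2% of all windows with a match. The Egr-family motif GCGNGGGCG, searched on both strands and able to overlap a GC box, had 1 match in the Dag1 window and 0 in the other 3, against 4.70% of all windows. Agrn, Dag1 and Dmd also had a downstream start listed, whose windows are not shown. The downstream window of Agrn held 2 GC boxes, 1 Egr match and 1 E-box. That of Dag1 held 3, 1 and 1, and that of Dmd 3, 0 and 0. These are matches of letters, and no binding was measured.

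The kept spots, those with at least 500 UMIs (unique molecular identifiers, each a captured RNA molecule), numbered 445 to 1175 per section, with medians of 3770 to 8028 UMIs per spot and 3419864 to 6358894 UMIs per section in the matrices. Spots were shallowest at d14. Mitochondrially encoded genes took 5.17% to 11.6% of UMIs, most at d7, and the d7 section alone held Eif2s3y (460 UMIs, against 0 in each other section) with 1 UMI of Xist, so it also differed in sex-linked genes. Of 1328 distinct barcodes, 247 were listed in all sections; a Visium barcode marks a position on the array and not a cell. Levels are CPM, UMIs per 1000000 UMIs after leaving out 8 haemoglobin and 13 mitochondrially encoded genes, with exact 95% Poisson intervals. Ratios of CPM carry exact binomial 95% intervals, and all intervals cover counting error only. A gene was counted as higher or lower when it had at least 20 UMIs over both groups, its ratio reached 1.5 or the inverse of that, and its interval left out 1. "Rose" and "fell" below mean that this rule was met, since no test over hearts was possible.

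Over whole sections, the members did not move as 1 group. Agrn was highest at d4, Sgca and Dag1 were highest at d14, Dmd was lowest at d1, and Utrn, Sgcb, Sgcd, Sspn and Lrp4 did not meet the rule on any day. Against d1, 1 of 9 members was higher at d4, 1 at d7 and 3 at d14, with none lower; over all genes tested, 21.5%, 18.1% and 31.5% met the rule in either direction, of which 17.4%, 9.48% and 15.1% as higher and 4.16%, 8.62% and 16.3% as lower. The members' counts were near this background at d4 and d7. At d14, 3 of 9 compares with 31.5% in either direction and 15.1% as higher, and 9 genes are too few to read an excess from. The median log2 ratio of the members was -0.07 at d4, 0.18 at d7 and 0.03 at d14, beside 0.21, -0.01 and -0.04 over all genes. The 3 comparisons share the d1 section. With TMM scaling the all-gene median at d4 moved from 0.21 to 0.02, and the share of calls that were higher went from 80.6% to 59.9%; with haemoglobin and mitochondrial genes in the total, that share at d7 went from 52.4% to 37.5%. Together the members held 0.0705%, 0.0728%, 0.0752% and 0.0944% of the UMIs used for scaling, in order of time.

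**Figure D1:**
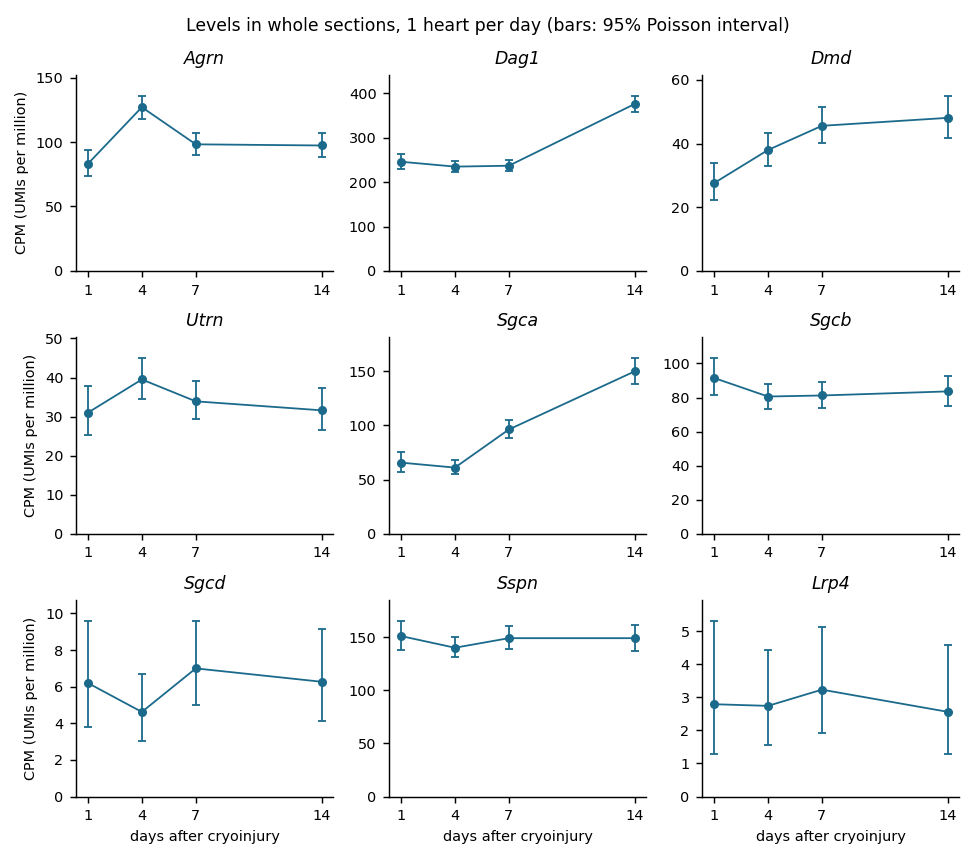
Level of each of the 9 genes in the whole section (CPM, each panel on its own scale from 0) against days after cryoinjury, with 1 section per day and 95% Poisson intervals as bars. Agrn peaks at d4 with 127 CPM, Sgca climbs to 150 CPM at d14, Dag1 is near 240 CPM until d7 and 376 at d14, and Sspn stays between 140 and 151.

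Agrn, the ligand, had 83.1 CPM (73.5 to 93.7) in the d1 section, 127 (118 to 136) in the d4 section, 98.2 (90.2 to 107) in the d7 section and 97.3 (88.2 to 107) in the d14 section, from 268, 742, 547 and 419 UMIs. The d4 section stood above the other 3, whose upper bounds were at most 107 CPM, and d1 stood lowest; as means over spots, the ratios to d1 were 1.00 at d7 and 0.965 at d14, so that d1 was not the lowest day. The d4 ratio to d1 was 1.53 (1.33 to 1.76), and the d7 ratio to d4 was 0.774 (0.692 to 0.866), short of the rule. With TMM scaling the d4 ratio was 1.34 (1.17 to 1.55), below the 1.5-fold limit. It was also below it as a mean over spots, and without spots holding UMIs of fast skeletal muscle genes. After thinning every spot to 2500 UMIs, the spots holding an Agrn UMI made up 18.5%, 31.6%, 19.5% and 18.2% of spots in order of time, where without thinning they were 44.3%, 62.7%, 47.0% and 27.4%. Thinning kept 405, 659, 771 and 1044 spots. The thinned shares of Agrn thus had d4 as the single high day.

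Dag1, the dystroglycan gene, had a d1 level of 246 CPM (229 to 264), a d4 level of 235 (222 to 247), a d7 level of 237 (225 to 250) and a d14 level of 376 (358 to 395), from 793, 1372, 1321 and 1620 UMIs. The first 3 days overlapped and d14 lay above all of them. It rose from d1 to d14 by 1.53-fold (1.40 to 1.67) and from d7 to d14 by 1.59-fold (1.47 to 1.71). With haemoglobin and mitochondrial genes in the total, the first of these was 1.47, just under the limit, and as a mean over spots it was 1.48. The second was computed with the main scaling only. Thinned shares of spots with a Dag1 UMI were 45.4%, 43.7%, 38.7% and 56.3% in order of time, highest at d14, where without thinning they were 75.5%, 81.7%, 78.8% and 69.4%. Receptor and ligand therefore peaked on different days: the UMI ratio of Agrn to Dag1 went in order of time from 0.338 (0.293 to 0.389) to 0.541 (0.494 to 0.592), 0.414 (0.374 to 0.458) and 0.259 (0.232 to 0.288).

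Lrp4, the agrin receptor of the neuromuscular junction, was near the limit of detection, with 9, 16, 18 and 11 UMIs in order of time (2.79, 2.74, 3.23 and 2.56 CPM). At most 2 of its UMIs fell in any spot, and all ratios between days had intervals that included 1. MuSK, the kinase that Lrp4 activates, had 0 UMIs up to d7 and 1 UMI (0.232 CPM) at d14.

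Dmd, which encodes dystrophin, had a d1 level of 27.6 CPM (22.2 to 34.0), a d4 level of 38.0 (33.1 to 43.3), a d7 level of 45.6 (40.2 to 51.6) and a d14 level of 48.1 (41.8 to 55.1), from 89, 222, 254 and 207 UMIs. The d1 section was below d7 and d14 without overlap of the intervals, and d4 lay between. Dmd rose 1.65-fold (1.29 to 2.13) from d1 to d7 and 1.74-fold (1.35 to 2.26) from d1 to d14, while the d4 ratio of 1.38 (1.07 to 1.78) was under the limit. As a mean over spots, the d4 ratio was 1.53 and met the rule. The shares of spots with a Dmd UMI differed less: thinned, they were 7.65%, 8.95%, 9.99% and 9.29% in order of time, lowest at d1 and highest at d7, and without thinning 17.1%, 26.7%, 26.2% and 15.5%. Dmd is X-linked and the d7 heart differed in its sex-linked genes, whose part in the d7 level was not tested.

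Utrn, the gene of the dystrophin relative utrophin, had 31.0, 39.5, 33.9 and 31.6 CPM in order of time, from 100, 231, 189 and 136 UMIs. Its ratios to d1 were 1.27 (1.003 to 1.63), 1.09 (0.854 to 1.41) and 1.02 (0.781 to 1.33). The UMI ratio of Dmd to Utrn within a section, which needs no scaling between sections, went in order of time from 0.890 (0.661 to 1.20) to 0.961 (0.796 to 1.16), 1.34 (1.11 to 1.63) and 1.52 (1.22 to 1.90). Dystrophin transcripts thus made up more of this pair at d14 than at d1, without overlap of the intervals. Whether the assay captures the 2 genes alike was not tested, so the ratio is read only across days.

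Among the sarcoglycans, Sgca (alpha-sarcoglycan) met the rule, and Sgcb and Sgcd did not. Sgca had a d1 level of 65.7 CPM (57.2 to 75.2), a d4 level of 61.1 (54.9 to 67.7), a d7 level of 96.3 (88.3 to 105) and a d14 level of 150 (138 to 162), from 212, 357, 536 and 645 UMIs. The first 2 days overlapped, and d7 and d14 each lay above the day before. Sgca rose 1.58-fold (1.38 to 1.81) from d4 to d7, 1.56-fold (1.39 to 1.75) from d7 to d14 and 2.28-fold (1.95 to 2.67) from d1 to d14. The last of these met the rule under all 11 alternatives run on whole sections, from 2.07 to 2.39, and was the only member's difference from d1 to do so. The others did not reach 2-fold, and Agrn at d4 and Dag1 at d14 also missed the rule under other alternatives. The d4 to d7 and d7 to d14 ratios were not run under the alternatives, so their dependence on scaling is not known. Mitochondrially encoded genes, left out of the total, took 5.17% of UMIs at d4 and 11.6% at d7. Over all genes, 16.2% met the rule from d4 to d7, 2.66% as higher and 13.5% as lower, and 24.2% from d7 to d14, 11.5% as higher and 12.7% as lower. Thinned shares of spots with an Sgca UMI were 12.8%, 13.8%, 17.4% and 28.4%, where without thinning they were 34.2%, 36.9%, 48.7% and 40.5%. With the main scaling, no other member met the rule from d4 to d7: the ratios were 1.01 for Dag1, 1.20 for Dmd, 0.859 for Utrn, 1.01 for Sgcb, 1.52 (0.905 to 2.58) for Sgcd, 1.06 for Sspn and 1.18 for Lrp4, beside the 0.774 of Agrn. From d7 to d14 Dag1 and Sgca met it, and the other 7 had ratios from 0.791 (Lrp4) to 1.05 (Dmd), each with an interval that included 1.

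Sgcb (beta-sarcoglycan) had 91.5, 80.6, 81.2 and 83.6 CPM, and Sspn (sarcospan) had 151, 140, 149 and 149. Their ratios to d1 lay between 0.881 and 0.987, each with an interval that included 1; at d14 these intervals were 0.782 to 1.07 for Sgcb and 0.874 to 1.11 for Sspn, which leave out a 1.5-fold difference either way by counting error alone. Sgcd (delta-sarcoglycan) had 20, 27, 39 and 27 UMIs, too few to show a 1.5-fold difference. The UMI ratio of Sgca to Sgcb accordingly went from 0.719 (0.600 to 0.860) at d1 through 0.758 at d4 and 1.19 at d7 to 1.79 (1.57 to 2.04) at d14.

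Markers of cell types moved over the same days, and their part in these differences was not tested. The 20 cardiomyocyte genes together had 115521, 101628, 125668 and 149097 CPM, so d14 was highest and d4 lowest, as for Sgca. The 12 fibroblast genes had 768, 1181, 1165 and 4006 CPM, and the 7 atrial genes 1465, 6924, 578 and 2604. The 25 matrix genes had 6443, 14004, 12881 and 12915 CPM, so they were lowest on the day when Agrn was lowest and highest on the day when it was highest. The 13 macrophage genes had 559, 295, 337 and 867, and the 7 neutrophil genes 230, 36.6, 22.1 and 48.6. The 13 skeletal muscle genes, which include Acta1, had 141, 305, 191 and 315. No gene of the cardiomyocyte, matrix and fibroblast lists was at 0 in any section, Arg1 of the macrophage list was at 0 at d4 and d14, Il1r2 of the neutrophil list at d4 and Il1r2 and Cxcr2 at d14, Bmp10 of the atrial list was at 0 at d7 and d14, and 5, 3, 1 and 3 of the skeletal muscle genes were at 0, among them Myh2 on every day but d7. In tissue spots, more cells of a type and more RNA per cell cannot be told apart.

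To place the members within each section, spots were ranked by the log2 ratio of 25 extracellular matrix genes to 20 cardiomyocyte genes, with 1 UMI added to each, and the 20% of spots with the highest ratio (matrix-rich, 89 to 235 spots) were set against the 20% with the lowest (cardiomyocyte-rich, 89 to 235 spots). No member is in either list. The classes are ranges of a score and not cell types: 51 to 109 spots per section lay within 0.25 of the matrix-rich limit and 101 to 242 within 0.25 of the other. Matrix-rich spots still held many cardiomyocyte transcripts, at 65208 to 110904 CPM of the cardiomyocyte list against 122582 to 168419. They also held more atrial genes (16395 against 1363 CPM at d4, 2040 against 87.5 at d7), more macrophage genes (2264 against 136 at d1) and more skeletal muscle genes (303 to 707 against 70.3 to 163). Their median depth was 10758 UMIs per spot at d4, against 6983 in cardiomyocyte-rich spots, and mitochondrially encoded genes took 8.02% of their UMIs at d7, against 13.1%. The part of these in the class differences was not tested. Sgcd and Lrp4 had fewer than 20 UMIs over both classes in every section and were left out of the count, so 7 of 9 members were compared.

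Sgca was lower in matrix-rich spots at d1, d4 and d7, Agrn was higher in them at d1 and d7, and Dag1, Dmd, Utrn and Sgcb did not meet the rule on any day with these classes. In order of time, 2, 1, 2 and 0 of the 7 members met it, where 21.5%, 25.3%, 20.3% and 22.5% of all genes did in either direction, 16.5%, 16.4%, 15.8% and 18.1% as higher and 5.02%, 8.92%, 4.46% and 4.42% as lower. The background was mostly in the direction of matrix, with 76.6%, 64.8%, 78.0% and 80.4% of calls higher there, or 48.9%, 55.1%, 50.4% and 46.2% with TMM scaling. The all-gene median log2 ratio moved with that scaling from 0.18 to -0.05 at d1, from 0.17 to -0.03 at d7 and from 0.23 to -0.05 at d14. The members' own medians were -0.12, -0.07, 0.05 and -0.19.

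**Figure D2:**
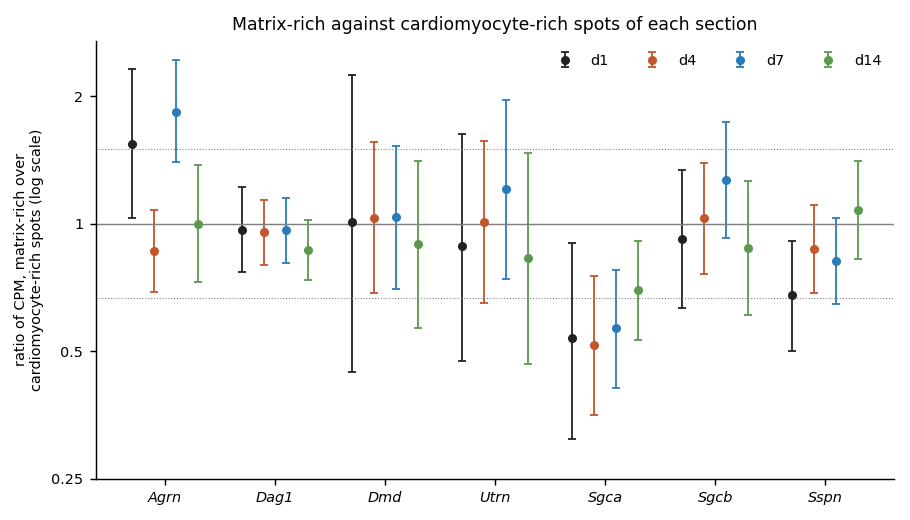
Ratio of CPM in matrix-rich over cardiomyocyte-rich spots (log axis) for the 7 members with at least 20 UMIs over both classes, 1 point per section with its exact 95% interval; the solid line is 1 and the dotted lines are the 1.5-fold limits. Sgca lies below 1 in all 4 sections, from 0.517 to 0.697, while Agrn lies above it at d1 (1.54) and d7 (1.84) and at 0.863 at d4.

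In order of time, Sgca had 72.2, 71.4, 108 and 166 CPM in cardiomyocyte-rich spots and 38.7, 36.9, 61.6 and 115 in matrix-rich spots. The matrix-rich value was the lower in each section. The ratios were 0.536 (0.310 to 0.900), 0.517 (0.353 to 0.753), 0.568 (0.410 to 0.778) and 0.697 (0.533 to 0.909), the last short of the 1.5-fold limit. It met that limit under 4 of 15 alternatives, among them TMM scaling, at 0.575 (0.439 to 0.750). With the spots of a section split into 5 equal bins by the score, the level at d7 stayed between 94.2 and 109 CPM in the 4 bins below the matrix-rich one and was 61.6 in that one. The step thus lay at the matrix-rich end. Without the 10% of spots richest in atrial genes, the ratio was 0.678 (0.397 to 1.13) at d1 and 0.795 (0.588 to 1.07) at d7, so the rule was met at neither, while at d4 it was still met at 0.525. At d7 it was also 0.687 (0.496 to 0.944) without spots holding fast skeletal muscle UMIs. The rule was met under 11 of 15 alternatives at d1, 14 of 15 at d4 and 11 of 15 at d7. As a mean over spots, the d1 ratio was 0.711.

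Agrn had 65.1, 148, 74.9 and 96.7 CPM in cardiomyocyte-rich spots and 100, 128, 138 and 96.8 in matrix-rich spots, d1 to d14. Its ratios were 1.54 (1.03 to 2.32), 0.863 (0.689 to 1.08), 1.84 (1.40 to 2.44) and 1.00 (0.727 to 1.38). Matrix-rich spots were thus the higher class at d1 and d7, and the classes overlapped at d4 and d14. The d1 call rested on 57 and 46 UMIs and was lost under 9 of 15 alternatives. At d7 it was kept under 12 of 15; it was 1.42 with a split of the score into 3 bins, 1.48 (1.08 to 2.03) without the 10% of spots richest in atrial genes and 2.66 (1.80 to 4.00) with classes of 10% of spots.

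**Figure D3:**
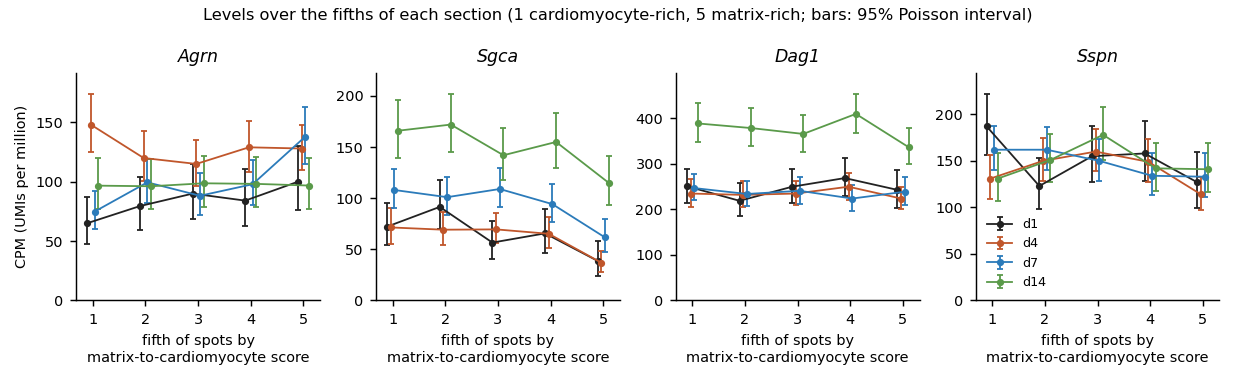
Levels (CPM, from 0) of 4 members over 5 equal bins of each section's spots, from cardiomyocyte-rich (1) to matrix-rich (5), 1 line per day with 95% Poisson intervals. Agrn reaches 148 CPM at d4 in bin 1 and 138 CPM at d7 in bin 5, Sgca has its lowest value in bin 5 on each day (36.9 CPM at d4), and Dag1 at d14 lies above the other days in both end bins, at 389 and 337 CPM.

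Dag1 was close to even over the classes, with 251, 235, 247 and 389 CPM in cardiomyocyte-rich spots in order of time and 243, 224, 239 and 337 in matrix-rich ones. Its ratios of 0.969, 0.954, 0.967 and 0.866 had intervals within 0.736 and 1.22, so a 1.5-fold difference in either direction lay outside counting error in each section. Dmd had ratios of 1.01, 1.03, 1.04 and 0.897, and Utrn 0.888, 1.01, 1.21 and 0.831, all with intervals that included 1 and, with 13 to 64 UMIs per class, wide ones (0.447 to 2.24 for Dmd at d1). Sgcb had 0.923, 1.03, 1.27 and 0.878. These 3 genes met the rule under other choices of classes. With classes of 10% of spots, Utrn was higher in matrix-rich spots at d7, at 2.08 (1.06 to 4.25), and at d14 Dmd was lower, at 0.487 (0.234 to 0.974), as was Sgcb, at 0.532 (0.298 to 0.928). Dmd at d14 was also lower with fibroblast genes in the score, at 0.586 (0.371 to 0.911), and Sgcb at d14 with Leiden clusters, at 0.537 (0.347 to 0.806). Sspn had 187 and 127 CPM at d1, a ratio of 0.678 (0.501 to 0.910) that met the rule with TMM scaling, at 0.579 (0.429 to 0.778); its later ratios were 0.871, 0.817 and 1.08. At d1 Sspn met the rule under 4 of 15 alternatives, TMM among them; at d4 it was lower with classes of 10% of spots (0.655) and Leiden clusters (0.537), and at d7 with Leiden clusters (0.578).

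Sgcd and Lrp4, the 2 members below the minimum, had few UMIs in either class. Sgcd had 7, 5, 7 and 10 in cardiomyocyte-rich spots and 2, 6, 7 and 2 in matrix-rich spots, in order of time. For Lrp4, 13 of the 18 UMIs at d7 came from 10 of the 155 cardiomyocyte-rich spots and 1 from the matrix-rich spots. In the other 3 sections each of the 5 bins held 1 to 5 UMIs. This was below the minimum for a comparison, and it was singled out after its values were seen.

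Days were also compared within a class. The classes are equal shares of each section's spots, and their makeup differed by day: cardiomyocyte-rich spots held 2888 CPM of the matrix list at d1 and 5350 at d4, and 589 CPM of the fibroblast list at d1 and 2155 at d14. Matrix-rich spots held 2964 CPM of the atrial list at d1 and 16395 at d4, and 2264 and 712 CPM of the macrophage list. The part of this in the differences between days was not tested. In cardiomyocyte-rich spots, Agrn rose 2.27-fold (1.62 to 3.24) from d1 to d4, from 65.1 to 148 CPM, and at d7 and d14 its ratios were 1.15 (0.797 to 1.68) and 1.49 (1.02 to 2.18). In matrix-rich spots its levels were 100, 128, 138 and 96.8 CPM, and its ratios of 1.27 (0.941 to 1.75), 1.37 (1.000 to 1.91) and 0.965 (0.681 to 1.38) did not meet the rule. The class ratio at d4 was 0.561 (0.359 to 0.876) times that at d1, so the d4 difference was the larger in cardiomyocyte-rich spots by counting error. Without the 10% of spots richest in atrial genes, however, the d4 ratio in matrix-rich spots was 1.58 (1.13 to 2.24) and met the rule, beside 2.30 (1.61 to 3.34) in the others. With classes of 10% of spots, the Agrn ratios in matrix-rich spots were 1.74 at d4 and 2.06 at d7, and both met the rule. With fibroblast genes in place of matrix genes in the score, the d4 ratio in cardiomyocyte-rich spots was 1.48 (1.08 to 2.05), and it met the rule under the other 13 alternatives.

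**Figure D4:**
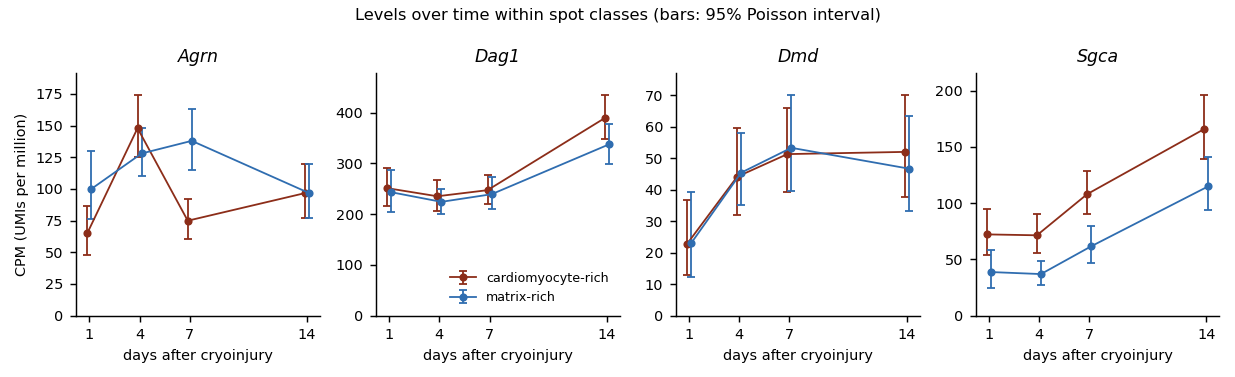
Levels (CPM, from 0) of 4 members against days after cryoinjury in the cardiomyocyte-rich and the matrix-rich 20% of spots of each section, with 95% Poisson intervals. Agrn in cardiomyocyte-rich spots goes from 65.1 at d1 to 148 at d4 and 74.9 at d7, while Sgca is higher at d14 than at d1 in both classes, at 166 and 115 CPM.

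Sgca was higher at d14 than at d1 in both classes, by 2.29-fold (1.65 to 3.23) in cardiomyocyte-rich and 2.98-fold (1.87 to 4.97) in matrix-rich spots, and both held under all 14 alternatives. At d7 it rose 1.5-fold (1.08 to 2.12) in cardiomyocyte-rich spots, and its ratio in matrix-rich spots was 1.59 (0.961 to 2.73). The d7 value in cardiomyocyte-rich spots lay at the limit and the rule was not met under 6 of 14 alternatives, which gave 1.32 to 1.56 in all; with haemoglobin and mitochondrial genes in the total it was 1.38 (0.988 to 1.94), while Sgcb was then lower, at 0.645 (0.464 to 0.900). In matrix-rich spots Sgca at d7 met the rule under 4 of 14. At d4 the Sgca ratios were 0.988 and 0.953. Dag1 at d14 rose 1.55-fold (1.29 to 1.88) in cardiomyocyte-rich spots and had a ratio of 1.39 (1.13 to 1.71) in the others; the first was short of the limit under 4 of 14 alternatives and the second met it under 4 of 14. Its ratios at d4 and d7 lay between 0.923 and 0.987. Dmd met the rule in both classes on all 3 days. Its ratios were 1.95, 2.27 and 2.30 in cardiomyocyte-rich and 1.99, 2.33 and 2.04 in matrix-rich spots, but these rest on 16 and 13 UMIs at d1. At d4 the rule was met under 9 of 14 alternatives in cardiomyocyte-rich and 8 of 14 in matrix-rich spots. In the bins between the classes, Dmd had 30.8, 33.3, 41.5 and 47.3 CPM in order of time. At d1 the classes themselves were lower, at 22.7 CPM in cardiomyocyte-rich and 22.9 in matrix-rich spots. With classes of 10% of spots the ratios in matrix-rich spots were 0.941, 1.14 and 0.777, so the direction turned at d4 and d14, and with fibroblast genes in the score the d4 ratio in cardiomyocyte-rich spots was 0.915. In all, 2, 2 and 3 of 7 members rose in cardiomyocyte-rich spots at d4, d7 and d14, beside 16.9%, 15.8% and 25.2% of all genes in either direction, 13.6%, 8.58% and 12.7% as higher and 3.31%, 7.18% and 12.5% as lower. In matrix-rich spots 1, 1 and 2 rose, beside 17%, 14.7% and 23.5% in either direction, 10.9%, 7.37% and 12.2% as higher and 6.05%, 7.36% and 11.3% as lower. With TMM scaling, the share of all calls that were higher went from 80.4% to 52.4% at d4 in cardiomyocyte-rich spots; there Dmd, at 1.69 (0.930 to 3.22), no longer met the rule at d4, and Agrn met it at d14, at 1.59 (1.09 to 2.34). With haemoglobin and mitochondrial genes in the total, that share at d7 went from 54.4% to 37.5% in cardiomyocyte-rich and from 50% to 38.3% in matrix-rich spots.

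Sspn and Sgcb had ratios below 1 in cardiomyocyte-rich spots. Sspn had 187, 131, 162 and 131 CPM there, with ratios to d1 of 0.702 (0.545 to 0.903), 0.869 (0.693 to 1.09) and 0.699 (0.537 to 0.908), short of the limit; with TMM scaling it fell at d4, at 0.609 (0.473 to 0.784). At d14 it fell under 3 of 14 alternatives, at 0.666 with haemoglobin and mitochondrial genes in the total, 0.666 as a mean over spots and 0.623 with classes of 10% of spots. The class ratio of Sspn at d14 was 1.59 (1.08 to 2.35) times that at d1. Sgcb had 99.1 CPM at d1 and 69.8 at d7, a ratio of 0.704 (0.506 to 0.982), and ratios of 0.794 at d4 and 0.818 at d14; with classes of 10% of spots its ratios were 1.01 at d7 and 1.17 at d14. In matrix-rich spots the ratios of Sspn were 0.902, 1.05 and 1.11 and those of Sgcb 0.884, 0.970 and 0.778, all with intervals that included 1. Utrn had ratios of 0.979, 0.785 and 0.885 in cardiomyocyte-rich and 1.11, 1.07 and 0.829 in matrix-rich spots, also with intervals that included 1. Sgcd and Lrp4 stayed below the minimum of 20 UMIs in each of these comparisons.

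Genes that work with the members were read from 5 lists. Their counts and medians stand beside those of all genes tested, of which 17.4%, 9.48% and 15.1% were higher than d1 at d4, d7 and d14 and 4.16%, 8.62% and 16.3% lower, with median log2 ratios of 0.21, -0.01 and -0.04. Of the other genes of the complex, 10 of 15 had enough UMIs; at d4, 1 was higher and 2 lower, at d7 1 was higher and 1 lower, and at d14 3 were higher and 1 lower. The median log2 ratios were 0.04, -0.28 and -0.16. With TMM scaling 4 were lower at d4 and 0 at d7. Sntb1, a syntrophin that binds dystrophin, had 68.2, 44.3, 44.9 and 16.5 CPM, a d14 ratio of 0.242 (0.182 to 0.317), while its relative Sntb2 had 18.3, 23.1, 24.1 and 30.4 and rose 1.66-fold (1.21 to 2.30) at d14. The 2 syntrophins also lay apart in space: Sntb1 was lower in matrix-rich spots at d1, d4 and d7 (0.527, 0.526 and 0.450) and Sntb2 higher at d4, d7 and d14 (2.70, 3.72 and 2.07). Sgce (epsilon-sarcoglycan) was higher in matrix-rich spots at d4 (1.79, 1.11 to 2.95), d7 (1.98, 1.19 to 3.33) and d14 (2.82, 1.47 to 5.77). Biglycan (Bgn), a small matrix proteoglycan that binds the complex, was 6.20-fold to 9.42-fold higher in matrix-rich spots and rose 2.22-fold (2.07 to 2.39) from d1 to d4.

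The basement membrane genes, some of whose products bind dystroglycan as agrin does, met the rule over whole sections against d1, and between classes, as higher only. Of the genes with enough UMIs, 4 of 12 were higher than d1 at d4, 3 of 11 at d7 and 7 of 12 at d14, beside 17.4%, 9.48% and 15.1% of all genes, and none was lower. The median log2 ratios were 0.52, 0.45 and 0.63, beside 0.21, -0.01 and -0.04. Within cardiomyocyte-rich spots 1 gene was lower at d14: Nid2 (nidogen 2), another basement membrane gene, had 66.5 CPM there at d1 and 31.4 at d14, a ratio of 0.473 (0.281 to 0.779), while 7 of 11 were higher. Lama2, the laminin alpha chain of muscle basement membrane, had 102, 169, 210 and 263 CPM, a d14 ratio of 2.58 (2.28 to 2.92). Lamb2 had 190, 270, 301 and 472 CPM and Lamc1 130, 167, 177 and 272, with d14 ratios of 2.48 (2.27 to 2.72) and 2.10 (1.88 to 2.35). These 3 chains form one laminin, and they were highest at d14, as Dag1 was and Agrn was not. Col4a1, a collagen IV chain, rose 1.61-fold (1.55 to 1.68) and Lamb1 1.56-fold (1.44 to 1.69) at d4. With TMM scaling the d4 count was 0 and the d14 count 8, none lower. In space, 4, 7, 4 and 7 of 11 were higher in matrix-rich spots in order of time and none lower, where 16.5%, 16.4%, 15.8% and 18.1% of all genes were higher; with TMM scaling 4, 4, 2 and 3 were higher and none lower. The median log2 ratios between classes were 0.58, 0.65, 0.43 and 0.75, beside 0.18, 0.12, 0.17 and 0.23 over all genes.

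**Figure D5:**
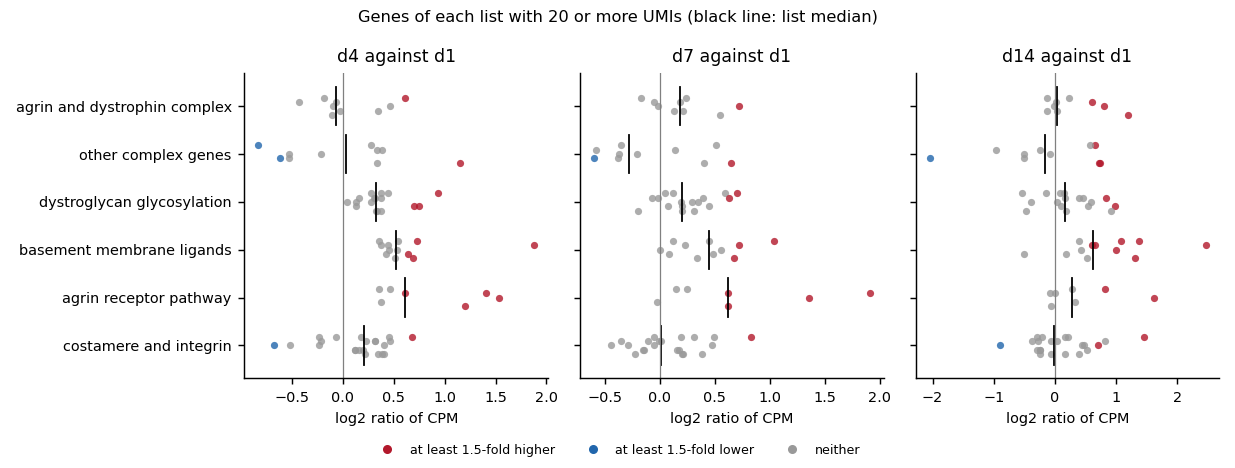
Log2 ratios of CPM at d4, d7 and d14 against d1, 1 point per gene with at least 20 UMIs, for the 9 members and the 5 lists (black line: list median; red and blue: at least 1.5-fold with an interval excluding 1). The basement membrane list has 7 of 12 genes higher at d14 and none lower, beside 3 of 9 members.

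On the agrin receptor pathway list, which holds junction genes and Yap genes, 6 of 13 genes were too low on each day and 4, 4 and 2 of 7 were higher than d1, with none lower, beside 17.4%, 9.48% and 15.1% of all genes higher. The median log2 ratios of the list were 0.61, 0.62 and 0.27, beside 0.21, -0.01 and -0.04. With TMM scaling 3 were higher at d4, and with haemoglobin and mitochondrial genes in the total 2 were higher at d7. The 4 at d4 were Chrnb1, Ankrd1, Ccn1 and Rapsn, 2 of them Yap targets and 2 junction genes. Ankrd1 had 523, 1395, 1963 and 524 CPM, ratios of 2.66 (2.53 to 2.81) at d4 and 3.75 (3.56 to 3.95) at d7. Ccn1 had 35.0, 80.7, 53.7 and 33.5 CPM and a d4 ratio of 2.30 (1.87 to 2.85). Ccn2, another Yap target, had 174, 224, 192 and 210 CPM and did not meet the rule on any day. Yap1 itself had 37.8, 49.3, 37.0 and 47.6 CPM and did not meet the rule. Of the junction genes, Chrnb1, a subunit of the acetylcholine receptor, had 2.79, 8.04, 7.18 and 8.60 CPM, from 9 UMIs at d1. Rapsn, the scaffold of acetylcholine receptors, rose 1.52-fold (1.14 to 2.07) at d4, and Dok7, the adaptor of MuSK, rose 1.75-fold (1.27 to 2.43) at d14. In matrix-rich spots Ccn1 was 6.52-fold, 5.24-fold and 2.34-fold higher at d1, d4 and d7, and Ccn2 was 2.67-fold, 4.49-fold, 2.03-fold and 3.17-fold higher in order of time. In all, 3 of 6, 3 of 7, 2 of 6 and 3 of 6 genes of the list were higher there and 0, 1, 1 and 0 lower, where 16.5%, 16.4%, 15.8% and 18.1% of all genes were higher and 5.02%, 8.92%, 4.46% and 4.42% lower.

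Dystroglycan must be glycosylated to bind agrin and laminin, and the enzymes of that step formed another list. Of 17 with enough UMIs, 3 were higher at d4, 2 at d7 and 2 at d14, and none was lower, with median log2 ratios of 0.33, 0.20 and 0.16, where 17.4%, 9.48% and 15.1% of all genes were higher and the medians were 0.21, -0.01 and -0.04. With TMM scaling the counts were 1, 3 and 5, and with haemoglobin and mitochondrial genes in the total 1 was lower at d14. Gmppb, which makes GDP-mannose, had 14.0, 26.7, 22.6 and 15.3 CPM and a d4 ratio of 1.91 (1.36 to 2.73). Dolk, the dolichol kinase, had 16.7, 20.9, 25.9 and 29.7 CPM and rose 1.78-fold (1.28 to 2.49) at d14. Of the costamere and integrin genes, which tie sarcomeres to the membrane beside the complex, 1 of 22 was higher and 1 lower at d4, 1 of 21 higher at d7, and 2 of 22 higher and 1 lower at d14; with TMM scaling 0 were higher and 2 lower at d4. Their median log2 ratios were 0.21, 0.01 and -0.01, beside 0.21, -0.01 and -0.04 over all genes. Itga7, the laminin receptor of muscle, had 63.0, 86.2, 112 and 171 CPM, a d14 ratio of 2.72 (2.33 to 3.20). Tln2 (talin) was lower at d14, at 0.536 (0.443 to 0.649), and Dysf, the membrane repair gene dysferlin, was higher at 1.64 (1.40 to 1.92).

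Likeness of pattern was read over 20 groups of spots (5 bins in each of 4 sections) as Pearson's r of log2(CPM + 10) against 5510 genes with at least 500 UMIs. These points share section, depth and the score, so the values are descriptive. Sgca was most like Cox7a1 (0.97), a muscle subunit of cytochrome oxidase, Tnni3 (0.96), the adult cardiac troponin I, and Adprhl1 (0.95). Tnni3 is in the cardiomyocyte list of the score. Dag1 was most like Ogdhl (0.96), Aldh2 (0.96) and Slc9a3r2 (0.94), and Agrn like Wnk1 (0.84), 2310009A05Rik (0.82) and Cmtm3 (0.82). Dmd reached 0.81 with each of Klf2, Akr1b3 and Pacsin3. Utrn reached 0.74 with Zfp629, and Sgcb and Sspn had no gene above 0.59 and 0.68. Among the members the closest pair was Dag1 and Sgca at 0.74, and Agrn and Sspn had the lowest value, at -0.47.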

How the data were processed

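For each of the 4 sections the authors deposited a matrix of unnormalized UMI counts, genes by spots. The file headers name Space Ranger 1.3.0, and the genome was mm10 per the submitters' processing notes, which also name Seurat 4.1.1 without a role. The rule that chose the spots in the matrices is not given in the sources used here, and neither images nor positions on the array were used. Spots with at least 500 UMIs were kept, UMIs were summed per section or spot class, and ratios of CPM were given exact conditional binomial (Clopper-Pearson) 95% intervals. A spot class is 20% of a section's spots by the matrix to cardiomyocyte score. With 1 section per day there is no test and no p-value. Spots were not treated as replicates. No doublet caller was run.

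Total UMIs per section were 3419864 to 6358894, so a gene at 10 UMIs has a wide interval, whatever the spread between hearts. The reporting rule was at least 20 UMIs over both groups, at least 1.5-fold, and an interval that excluded 1; the 9 members are described in each comparison, those below the minimum by their UMIs or by name. Other named genes were up to 4 genes meeting the rule with the largest log2 ratio per list and comparison, and 3 most alike genes per member with at least 300 UMIs; which of these are described was chosen after their values were seen, and other levels (Musk, Yap1) are given as context. The members and lists were chosen with earlier results of these data known. 2 listed synonyms were not found as symbols. A gene of the lists is not reported here. Alternatives covered scaling (edgeR 4.0.16 TMM in R 4.3.3), spots, classes (scanpy 1.11.5 Leiden clusters included) and limits; 1, leaving out atrial-rich spots, was chosen after seeing the data. The ratio and its interval were tested on simulated Poisson counts. These follow the counting error that the interval assumes and hold no spread between hearts or spots, so they cannot show how the calls fare with such spread. Computation used Python 3.11.15, scipy 1.17.1 and pandas 2.3.3.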

Additional observations from a re-analysis of the deposited data

Results flagged for a closer look

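The difference between spot classes changed from d1 to another day for 2 members. The ratio of matrix-rich to cardiomyocyte-rich CPM of Agrn at d4 was 0.561 times that at d1 (0.359 to 0.876), from class ratios of 0.863 and 1.54. For Sspn the ratio at d14 was 1.59 times that at d1 (1.08 to 2.35), from 1.08 and 0.678. Both were picked out because a counting interval of the difference excluded 1, among 21 such ratios, and neither was tested over hearts.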

How the results depend on the processing

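Of 1582 values of members' ratios under 15 alternatives, 1550 stayed within the interval of the reported value, 29 lay outside it and 3 turned the direction of a ratio that met the rule. The 2-fold limit, no gene minimum and a minimum in CPM change the rule alone, so their ratios equal the reported ones and stay within by definition. Sgcd and Lrp4, with few UMIs and wide intervals, are among the 1582 values. Ratios of d7 to d4 and of d14 to d7 were not run under the alternatives. Among ratios that did not meet the rule, 113 of 1298 values lay on the other side of 1 from the reported one and are counted by the interval alone. The 3 that turned were Dmd in matrix-rich spots with classes of 10% of spots (0.941 at d4 and 0.777 at d14 against d1) and Dmd in cardiomyocyte-rich spots with fibroblast genes in the score (0.915 at d4). Of 177 counts of members meeting the rule, 132 stayed within 1.5 times and 45 did not. Where a count stayed the same the members could differ: with TMM scaling 2 met it between classes at d1, Sgca and Sspn in place of Agrn and Sgca, and in cardiomyocyte-rich spots at d4 Agrn and Sspn in place of Agrn and Dmd. With haemoglobin and mitochondrial genes in the total, the d7 count of 2 in cardiomyocyte-rich spots held Sgcb as lower in place of Sgca as higher. In matrix-rich spots, Agrn stood in place of Dmd at d4 and d7 with classes of 10% of spots, and at d4 without atrial-rich spots. As means over spots, Dmd stood in place of Agrn at d4 over whole sections. Over whole sections, the d4 count of 1 was 0 with TMM, with a 2-fold limit and without spots holding fast skeletal muscle UMIs, and the 2-fold limit left 0 at d7 and 1 (Sgca) at d14. Between classes, the 2-fold limit left 0 at d1, d4 and d7. At d1 the count of 2 was 1 with all listed spots, means over spots, 3 bins, Leiden clusters or without atrial-rich spots, and 0 with fibroblast genes in the score. At d4 it was 2 with classes of 10% of spots or Leiden clusters. At d7 it was 1 without skeletal muscle spots, and 0 with 3 bins or without atrial-rich spots. At d14 it was 1 with TMM, means over spots, no gene minimum (Sgcd), fibroblast genes, Leiden clusters or without atrial-rich spots, and 3 with classes of 10% of spots. Within cardiomyocyte-rich spots, the d4 count of 2 was 1 with the 2-fold limit, classes of 10% of spots or without atrial-rich spots and 0 with fibroblast genes, and the d7 count of 2 was 1 with a 1500 UMI spot minimum, the 2-fold limit, 3 bins, fibroblast genes or without skeletal muscle spots and 0 with classes of 10% of spots. Within matrix-rich spots, the d4 count of 1 was 0 with the 2-fold limit, 3 bins, fibroblast genes or without skeletal muscle spots, and the d7 count of 1 was 2 with all listed spots, 3 bins, or without skeletal muscle or atrial-rich spots, and 0 with fibroblast genes. The cause of these changes was not tested. No paired analysis was possible because each day has 1 section. Depth limits Sgcd, Lrp4 and the class values of Dmd and Utrn, and no interval holds the spread between hearts.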
